A study of Mus musculus with 10 samples.

Results

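Albumin (Alb), transthyretin (Ttr), transferrin (Trf), fetuin-A (Ahsg), zinc-alpha-2-glycoprotein (Azgp1), the bikunin precursor (Ambp) and the inter-alpha-trypsin inhibitor heavy chains Itih1, Itih2, Itih3 and Itih4 are secreted by hepatocytes in large amounts. These 10 genes, of 14860 genes with a probe set of a single symbol, were chosen by their symbols alone, and each had 1 probe set. Their RNA was measured in whole liver of 5 mice injected for 6 weeks with carbon tetrachloride (CCl4), a solvent toxic to hepatocytes whose repeated use scars the liver, and of 5 mice injected with oil for the same time. All were male Balb/c mice, obtained at 8 weeks of age and otherwise unmodified, and each array held 1 liver. The values are the deposited signals, read as log2, in which a difference of 1 is a doubling. Array medians lay between 2.54 and 2.66, and in whole liver fewer hepatocytes and less RNA per hepatocyte cannot be told apart.

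In the liver, hepatocytes make most plasma proteins and release them without storage. Albumin carries fatty acids, bilirubin and drugs, transthyretin carries thyroxine and retinol-binding protein, and transferrin carries iron. Fetuin-A holds calcium phosphate in solution, and zinc-alpha-2-glycoprotein has an MHC class I-like fold and is linked to the release of stored fat. The Ambp product is cut into alpha-1-microglobulin, which binds haem, and bikunin, a protease inhibitor. Bikunin is joined through chondroitin sulfate to the Itih1 and Itih2 chains in inter-alpha-inhibitor, and to the Itih3 chain in pre-alpha-inhibitor. The enzyme TSG-6 (Tnfaip6) moves these chains onto hyaluronan, the large sugar of loose matrix, whereas the Itih4 chain does not join bikunin. In acute inflammation albumin and transthyretin are known to fall, and some heavy chains are known to rise.

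The promoters below are shown because Itih4, Itih3 and Itih1 lie next to each other on chromosome 14 yet gave unequal changes, and because Alb, of the 8 promoters matched, was the one with matches to the letters searched for Dbp (D-site albumin promoter binding protein), an output factor of the clock. They are RefSeq sequences of build GRCm38.p6, 250 bases before to 50 after the annotated start, and 8 of the 10 genes were matched by symbol, all but Ttr and Trf. Capitals mark a D-element consensus (TTATGTAA or TTACGTAA), the STAT palindrome (TTCNNNGAA), the CCAAT box (CCAAT) and the TATA box (TATAAA), searched on both strands, and no matches of different motifs overlapped.
Itih4 (chr14:30886226-30886525, + strand): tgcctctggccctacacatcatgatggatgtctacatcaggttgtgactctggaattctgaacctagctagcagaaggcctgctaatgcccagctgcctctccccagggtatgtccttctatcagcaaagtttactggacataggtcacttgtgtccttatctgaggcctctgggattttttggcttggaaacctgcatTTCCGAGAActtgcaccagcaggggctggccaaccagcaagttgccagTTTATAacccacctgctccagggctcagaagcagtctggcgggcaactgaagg
Itih3 (chr14:30923538-30923837, - strand): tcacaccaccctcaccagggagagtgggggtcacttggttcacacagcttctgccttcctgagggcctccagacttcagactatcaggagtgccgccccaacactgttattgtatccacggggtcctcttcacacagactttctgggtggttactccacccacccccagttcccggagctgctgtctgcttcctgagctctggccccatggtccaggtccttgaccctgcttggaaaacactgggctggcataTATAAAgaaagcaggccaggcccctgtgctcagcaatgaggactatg
Itih1 (chr14:30943240-30943539, - strand): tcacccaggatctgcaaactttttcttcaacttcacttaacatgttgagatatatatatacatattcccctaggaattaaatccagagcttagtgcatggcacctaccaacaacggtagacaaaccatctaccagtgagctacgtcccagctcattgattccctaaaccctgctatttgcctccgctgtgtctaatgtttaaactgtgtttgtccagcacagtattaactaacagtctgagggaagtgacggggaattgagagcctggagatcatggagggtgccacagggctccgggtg
Alb (chr5:90460620-90460919, + strand): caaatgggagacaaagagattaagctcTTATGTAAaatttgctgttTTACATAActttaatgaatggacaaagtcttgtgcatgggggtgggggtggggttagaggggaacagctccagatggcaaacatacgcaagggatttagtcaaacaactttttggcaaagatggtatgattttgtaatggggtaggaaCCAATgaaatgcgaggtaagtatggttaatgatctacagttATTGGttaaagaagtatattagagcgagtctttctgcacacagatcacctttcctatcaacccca

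The D-element consensus occurred in Alb, with 2 matches whose first bases lie at -223 and -204 from the start, and in none of the other 7 promoters. It is present in 1.06% of the 32851 promoters of the table. Alb also held 2 CCAAT boxes, and Ahsg, Azgp1 and Ambp held 1 each, a motif found in 37.4% of promoters. Itih4 had 1 STAT palindrome at -51, against 8.30% of promoters with a match, and Itih3 and Itih1 had none in this window. The letters of the TATA box matched at -3 in Itih4, on the strand opposite to the gene, and at 4 in Itih3 (13.6% of promoters). Both matches lie at the annotated start and not well before it. Itih1 and Itih2 matched none of the motifs. These are matches of letters and show no binding, and the capitals in Alb do not mark the D-site for which Dbp is named.

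None of the 10 genes passed the limma test of CCl4 against oil at an adjusted p under 0.05, where 0.72% of 23332 probe sets did, 0.63% higher and 0.09% lower. At an unadjusted p under 0.05 there was 1 of the 10, Itih3, against 11.3% of all probe sets. The groups of livers overlapped for every one of the 10, whereas they did not overlap for 3.89% of probe sets. The log2 fold changes were positive for 6 genes and negative for 4, with a median of 0.02 beside 0.01 over all genes. For the 9 genes other than Itih3 the fold changes lay within 0.17 of 0, and every 95% interval lay between -0.42 and 0.46, or 0.749-fold and 1.38-fold. A p above the threshold does not show that a gene was unaltered, and these intervals concern array signal, which may be close to its ceiling for the brightest probe sets.

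**Figure D1:**
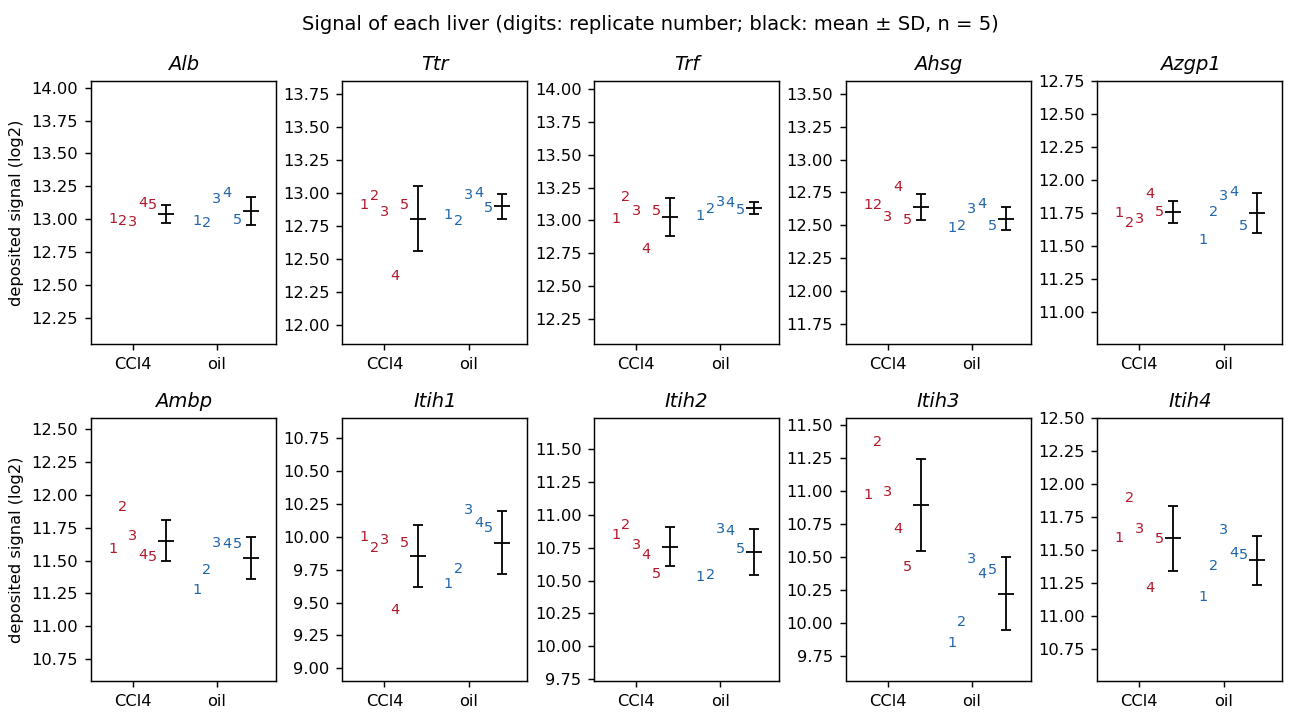
Deposited log2 signal of the 10 genes in each liver, with replicate numbers as points, CCl4 left of oil, and the mean ± SD of 5 livers in black; every panel spans 2 log2 units. CCl4 and oil livers overlap in every panel, and in the Itih3 panel 4 of 5 CCl4 livers lie above all oil livers.

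The carriers differed little between the groups. Alb was 13.00, 12.99, 12.98, 13.12 and 13.10 in CCl4 livers 1 to 5, against 12.99, 12.97, 13.15, 13.20 and 13.00 in oil livers 1 to 5. All CCl4 livers lay within the range of the oil livers. The log2 fold change of Alb was -0.02 ± 0.08 (SE, limma adjusted p = 0.959).

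Ttr was 12.91, 12.98, 12.86, 12.37 and 12.91 in CCl4 livers 1 to 5, against 12.84, 12.79, 12.99, 13.00 and 12.89 in oil livers. CCl4 liver 4 stood alone below all others, and the remaining 4 CCl4 livers lay inside the oil range. The log2 fold change was -0.09 ± 0.12 (SE, limma adjusted p = 0.861), and 0.01 without CCl4 liver 4.

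Trf was 13.01, 13.18, 13.07, 12.79 and 13.07 in CCl4 livers, against 13.03, 13.09, 13.14, 13.13 and 13.08 in oil livers, in the order of replicate number. The same CCl4 liver 4 was lowest, CCl4 liver 2 was above all oil livers, and the CCl4 livers spread wider (SD 0.15 in CCl4 livers and 0.04 in oil livers, n = 5 each). The log2 fold change was -0.07 ± 0.08 (SE, limma adjusted p = 0.846), and -0.01 without CCl4 liver 4.

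Ahsg was 12.65, 12.66, 12.57, 12.80 and 12.54 in CCl4 livers, against 12.48, 12.49, 12.63, 12.66 and 12.49 in oil livers. CCl4 liver 4, the lowest for the transport proteins Ttr and Trf, was here the highest of all 10 livers. Ahsg had a log2 fold change of 0.09 ± 0.08 (SE, limma adjusted p = 0.752). Azgp1 was 11.75, 11.68, 11.70, 11.89 and 11.76 in CCl4 livers and 11.55, 11.75, 11.88, 11.91 and 11.65 in oil livers, with all CCl4 livers inside the oil range. Its log2 fold change of 0.01 ± 0.09 (SE, limma adjusted p = 0.989) had the smallest size of the 10, and its sign turned with median centring, with array quality weights, or without CCl4 liver 4, oil liver 1 or oil liver 5.

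Ambp, the source of bikunin, was 11.59, 11.91, 11.69, 11.54 and 11.53 in CCl4 livers, against 11.28, 11.43, 11.63, 11.63 and 11.63 in oil livers. CCl4 livers 2 and 3 lay above every oil liver and oil livers 1 and 2 below every CCl4 liver. Ambp had a log2 fold change of 0.13 ± 0.11 (SE, limma adjusted p = 0.724).

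The log2 fold changes of the heavy chains were unequal, and none of these genes passed the test. Itih1 was 9.995, 9.91, 9.97, 9.44 and 9.95 in CCl4 livers, against 9.64, 9.76, 10.20, 10.10 and 10.07 in oil livers. CCl4 liver 4 was again the lowest of all, and the log2 fold change of Itih1 was -0.10 ± 0.14 (SE, limma adjusted p = 0.881), or 0.0039 without that liver. Itih2 was 10.85, 10.93, 10.77, 10.70 and 10.55 in CCl4 livers, against 10.53, 10.55, 10.89, 10.88 and 10.74 in oil livers. The groups were mixed, with a log2 fold change of 0.04 ± 0.11 (SE, limma adjusted p = 0.941) that turned negative with median centring and without oil liver 1 or oil liver 2.

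Itih3 had the largest difference of the 10. It was 10.97, 11.37, 11.00, 10.71 and 10.43 in CCl4 livers, against 9.85, 10.01, 10.49, 10.37 and 10.40 in oil livers. Of the CCl4 livers, 4 lay above every oil liver, and CCl4 liver 5 lay between oil livers 5 and 3. The means were 10.90 ± 0.35 in CCl4 livers and 10.22 ± 0.28 in oil livers (SD, n = 5 each), a log2 fold change of 0.68 ± 0.19 (SE, 95% interval 0.26 to 1.09). That is 1.597-fold, just below the fold of 1.6 that the methods of the study required. The limma adjusted p was 0.151 (unadjusted 0.00427), so that Itih3 did not pass, and its adjusted p lay between 0.0687 and 0.393 over the alternatives tried.

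Itih4, which shares the locus, was 11.59, 11.90, 11.66, 11.21 and 11.58 in CCl4 livers, against 11.14, 11.38, 11.66, 11.48 and 11.46 in oil livers. CCl4 liver 2 was highest, CCl4 liver 4 was lowest of its group, and oil liver 1 was lowest of all. Itih4 had a log2 fold change of 0.17 ± 0.13 (SE, limma adjusted p = 0.733), and 0.26 without CCl4 liver 4.

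**Figure D2:**
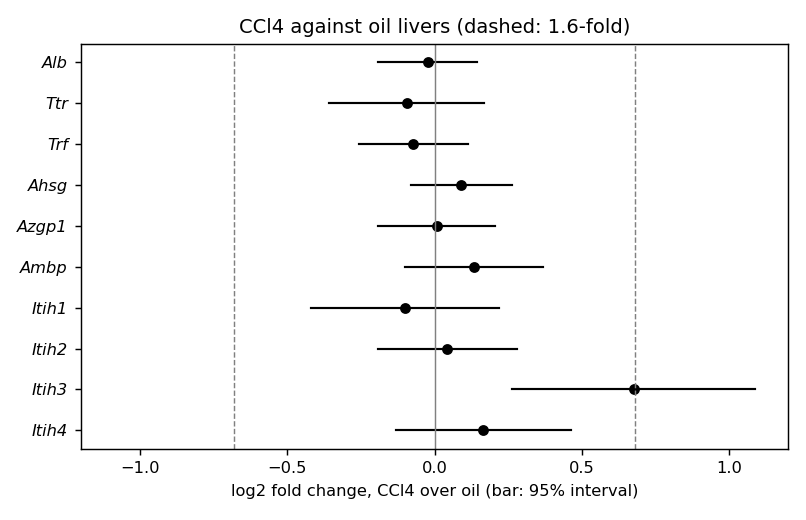
Log2 fold changes of the 10 genes, CCl4 over oil (points), with 95% intervals from limma (bars); dashed lines mark 1.6-fold in either direction. Itih3, at 0.68, is the only gene whose interval excludes 0, and the other intervals lie within -0.42 to 0.46.

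Whether Itih3 moved apart from the other heavy chains was tested within livers, by the difference between 2 probe sets on the same array, in which a scaling factor of the array cancels. All 6 pairs of heavy chains were compared by an exact two-sided permutation test over livers, whose smallest possible p is 0.00794. Benjamini-Hochberg adjustment was over the 6 pairs. Itih3 had the largest difference of the 10 genes in these same livers, and its pairs share its values. These p are therefore no independent support for a rise of Itih3, which did not pass the test over all probe sets. How often other pairs of probe sets do not overlap is not given here. Itih3 minus Itih1 was 0.98, 1.46, 1.02, 1.27 and 0.48 in CCl4 livers, against 0.20, 0.25, 0.29, 0.26 and 0.33 in oil livers, on the log2 scale. No CCl4 liver overlapped an oil liver, and the oil livers were nearly equal (SD 0.37 in CCl4 livers and 0.05 in oil livers). The difference was 0.77 ± 0.17 (SE; exact permutation p = 0.00794, adjusted 0.0238).

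Itih3 minus Itih2 was 0.12, 0.45, 0.22, 0.02 and -0.12 in CCl4 livers, against -0.68, -0.54, -0.41, -0.51 and -0.34 in oil livers. These also did not overlap, and the difference was 0.63 ± 0.11 (SE; exact permutation p = 0.00794, adjusted 0.0238). The probe sets of Itih3 and Itih2 were about equally bright, with means of 10.56 and 10.74 over all livers. Itih3 minus Itih4 differed by 0.51 ± 0.13 (SE; exact permutation p = 0.0238, adjusted 0.0357), with CCl4 liver 5, at -1.16, inside the oil range. Itih4 minus Itih1 differed by 0.27 ± 0.08 (SE; exact permutation p = 0.0159, adjusted 0.0317), with CCl4 livers 1 to 5 at 1.59, 1.99, 1.68, 1.77 and 1.63 and oil livers 1 to 5 at 1.50, 1.62, 1.46, 1.37 and 1.39. The differences of 0.14 for Itih2 minus Itih1 and 0.12 for Itih4 minus Itih2 had exact permutation p of 0.286 and 0.262. The 4 pairs that passed had adjusted p between 0.0536 and 0.134 without oil livers 1 and 2, where only 3 oil livers remain. Their differences then lay between 0.33 and 0.75. Itih3 minus Itih2 and Itih4 minus Itih1 had an exact permutation p of 0.0179 there. No smaller p is possible with so few livers, so these 2 results do not show a weaker difference.

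**Figure D3:**
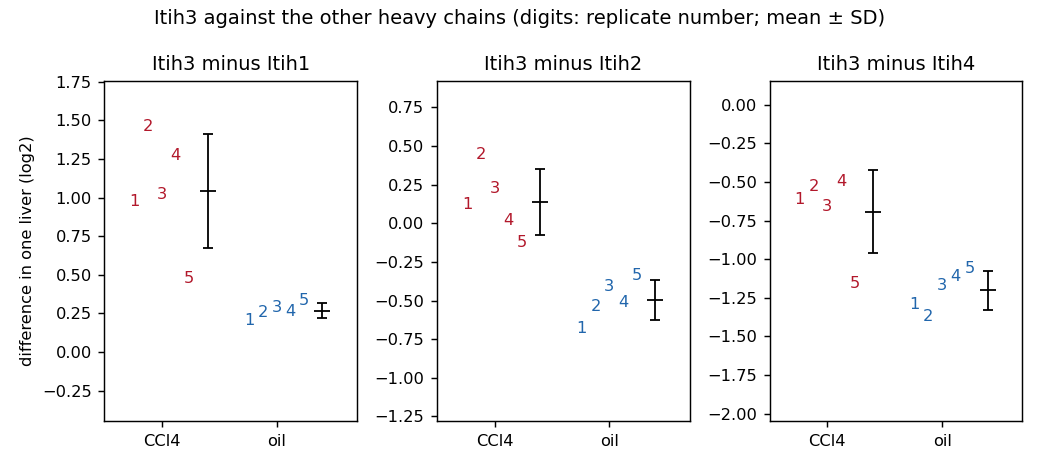
Itih3 signal minus that of Itih1, Itih2 or Itih4 in the same liver (log2), with replicate numbers as points, CCl4 left of oil, and the mean ± SD of 5 livers in black. CCl4 and oil livers do not overlap for Itih1 and Itih2, and for Itih4 only CCl4 liver 5 lies among the oil livers.

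Neighbouring genes gave no shared direction. In assembly GRCm38.p6, used here for gene order only, Stimate and Mustn1 lie on the outer side of Itih4, and Nek4, Spcs1, Glt8d1 and Gnl3 on that of Itih1. Mustn1, a small nuclear protein of muscle and skeleton, had a log2 fold change of 0.81 ± 0.41 and Glt8d1 of 0.22, whereas Stimate was at -0.31, Nek4 at -0.26, Spcs1 at -0.33 and Gnl3 at -0.16, with limma adjusted p from 0.336 to 0.878. Beside Alb, the fetal relative Afp had 3.29 ± 1.76 in CCl4 livers and 1.81 ± 0.06 in oil livers (SD, n = 5 each; log2 fold change 1.49, limma adjusted p = 0.461), with CCl4 liver 2 highest at 6.23, and Afm, a vitamin E carrier, was at -0.40 (limma adjusted p = 0.549). Beside Ahsg, its relative Fetub was at 0.26, Hrg at 0.20 and Kng1 at 0.01, and Itih5, the neighbour of Itih2, was at 0.42 (limma adjusted p from 0.408 to 0.984).

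The oil livers differed from each other in the same direction for most of the 10 genes, and the CCl4 livers were mixed. Relative to the mean of the oil livers, 0 of the 10 were higher in oil liver 1 and 1 in oil liver 2, whereas all 10 were higher in oil livers 3 and 4. Oil liver 1 was lowest of its group for 8 genes and oil liver 2 for the other 2, Alb and Ttr. In the CCl4 group, liver 2 was highest for 6 genes (Ttr, Trf, Ambp, Itih2, Itih3 and Itih4) and lowest for Azgp1. CCl4 liver 4 was lowest for 4 (Ttr, Trf, Itih1 and Itih4) and highest for 3 (Alb, Ahsg and Azgp1). On the same scale the 10 genes had medians of -0.20, -0.09, 0.12, 0.12 and 0.01 in oil livers 1 to 5, against -0.10, -0.04, 0.11, 0.05 and -0.03 for the 224 other probe sets of the brightest 1%. Of these 224, 51, 90, 188, 147 and 79 were above the mean of the oil livers in oil livers 1 to 5. The part of array brightness in these shifts was not tested.

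**Figure D4:**
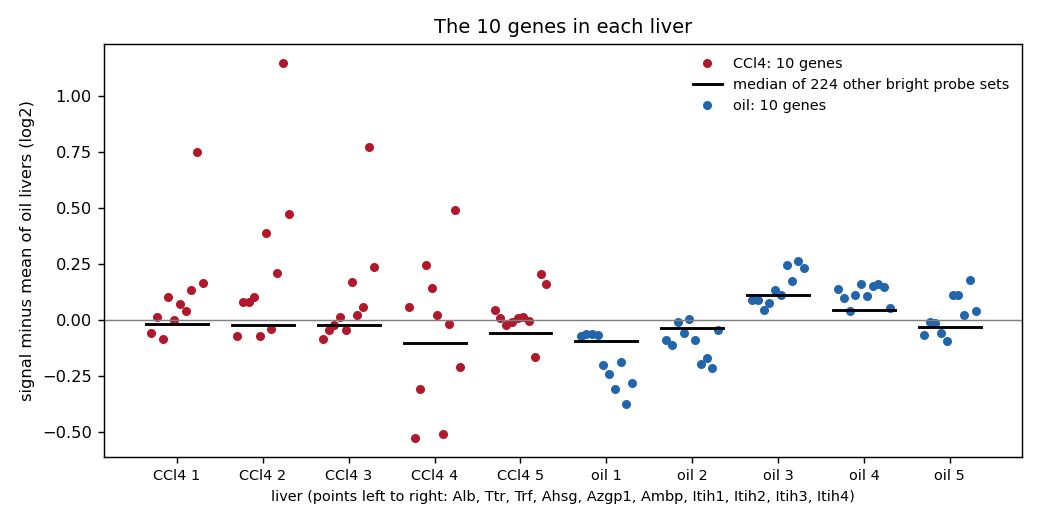
Signal of the 10 genes in each liver minus the mean of the oil livers (log2; points from left to right in the order Alb to Itih4), with the median of the 224 other probe sets among the brightest 1% as a black line. The points of oil livers 1 and 2 lie at or below 0 apart from a single gene in oil liver 2, those of oil livers 3 and 4 lie above 0, and those of CCl4 liver 4 lie on both sides.

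Clock genes divided both groups of livers. Arntl (Bmal1), the core activator of the circadian clock, was 3.15 and 3.21 in CCl4 livers 1 and 2 and 3.14 and 3.41 in oil livers 1 and 2, against 4.71 to 6.08 in the other 3 livers of each group. The output factor Dbp ran the other way, with 8.72 and 8.08 in CCl4 livers 1 and 2, and 5.74 to 6.31 in CCl4 livers 3 to 5. It was 8.39 and 7.77 in oil livers 1 and 2, and 3.42 to 4.04 in oil livers 3 to 5. The labels give no collection time.

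Within the 4 livers with Arntl under 4, 2 of each group, the log2 fold change of Itih3 was 1.25, and within the other 6 livers it was 0.29. Those of Itih4 were 0.48 and -0.05, of Ambp 0.40 and -0.04, of Itih2 0.35 and -0.16, and of Itih1 0.25 and -0.34. In the livers with low Arntl the log2 fold changes of all 10 genes were positive. The oil livers there were 1 and 2, which between them held the lowest oil value of each of the 10 genes. The sign in that division is therefore not particular to these 5 genes. In the other 6 livers those of Itih3 and Ahsg were positive, and for Itih3 CCl4 liver 5 lay below oil liver 3. The carriers had 0.13 and -0.25 for Ttr, 0.03 and -0.14 for Trf and 0.02 and -0.05 for Alb. Ahsg had 0.17 and 0.04, and Azgp1 0.06 and -0.03. The difference between the divisions, tested in limma as an interaction over all probe sets, was 0.95 for Itih3 (unadjusted p = 0.00605, adjusted p = 0.350). No gene of the 10 and 0 of all probe sets passed that test, with 2129 of 23332 probe sets at an unadjusted p under 0.05. Besides Itih3, the genes of the 10 under 0.05 were Itih2, Itih1 and Ambp (limma interaction, unadjusted p = 0.011, 0.0361 and 0.0379). This division was made after the clock genes were seen. It is balanced over the groups, so that using it as a covariate cannot alter a fold change, and the limma adjusted p of Itih3 was then 0.186.

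A probe set near the top of the scale of an array can show less of a difference, so brightness was examined. Ordered by mean signal over all livers, Trf was first, Alb the second, Ttr at place 6 and Ahsg at place 12 of 23332, which is an order of probe set brightness and not of RNA amount. Azgp1, Ambp and Itih4 were at places 46, 61 and 70, Itih2 and Itih3 at 165 and 194, and Itih1 at 337. The 5 brightest probe sets lay within 0.05 of each other, and the highest value on an array was 13.05 to 13.40. A 16-bit scanner has its upper limit at 16 on the log2 scale, above all of these values. The deposited values are processed signals, so that gap does not measure the distance to a ceiling, which was not tested. Alb was the maximum of CCl4 livers 4 and 5, and Trf that of CCl4 livers 2 and 3 and of oil livers 2 and 5.

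Among the brightest probe sets the spread between livers was narrower. The median within-group SD was 0.12 for the 10 brightest probe sets, 0.16 for places 11 to 50, 0.21 for places 51 to 233 and 0.27 for places 1168 to 5833. It was 0.20 for places 11667 to 23332, the dimmest probe sets, so that the spread was widest in the middle of the scale. The within-group SD was 0.09 for Alb, 0.11 for Trf and 0.09 for Ahsg, and 0.24 for Itih1 and 0.32 for Itih3 among the dimmer of the 10. Not all bright probe sets were narrow. Car3, a carbonic anhydrase at place 10, had a within-group SD of 0.75, and Ttr had 0.19, most of it from CCl4 liver 4. How much of a true difference is lost at this brightness was not tested.

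Among the 233 probe sets of the brightest 1%, which hold 9 of the 10 genes, all but Itih1, 2 passed the test, both higher in CCl4 livers. These were Apoa4, an apolipoprotein at 1.98, and a probe set without a symbol at 1.02. There were 12 of the 233 with a log2 fold change larger in size than that of Itih3.

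**Figure D5:**
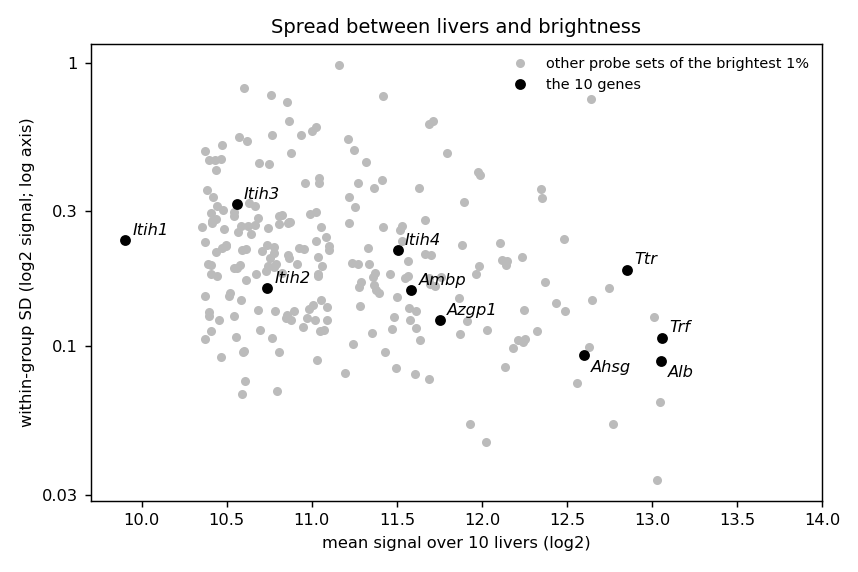
Within-group SD of log2 signal (log axis) against mean log2 signal over 10 livers, for the 10 genes (black) and the other probe sets of the brightest 1% (grey). The SD of Alb, Trf and Ahsg is 0.09 to 0.11 and that of Itih3 is 0.32.

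None of the measured partners and receptors of these proteins passed the test. Of 16 other measured genes of the inter-alpha-trypsin inhibitor and hyaluronan system 0 passed, with a median log2 fold change of 0.10. Cd44, a hyaluronan receptor, was 3.03 ± 0.55 in CCl4 livers and 2.18 ± 0.06 in oil livers (SD, n = 5 each), and Tnfaip6 was 1.73 ± 0.22 in CCl4 livers and 1.33 ± 0.07 in oil livers. All CCl4 livers lay above all oil livers for both, with log2 fold changes of 0.85 and 0.40 (limma adjusted p = 0.139 for each). The same held for Vcan, a matrix gene of this list, and 3.89% of all probe sets did not overlap in either direction. Tnfaip6 was dimmer than the array medians in every liver, and Cd44 and Vcan were in every oil liver. Lyve1, a further hyaluronan receptor, was at 2.14 (limma adjusted p = 0.213). Of 10 receptors and recycling proteins 0 passed (median -0.07), with the ferritin receptor Scara5 at 1.06, the asialoglycoprotein receptor chains Asgr2 and Asgr1 at -0.55 and -0.18, the transferrin receptors Tfrc and Tfr2 at -0.31 and -0.07, and Fcgrt, which rescues albumin from breakdown, at -0.07.

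Other plasma carriers were mixed, with 0 of 14 past the threshold and a median of 0.02. Hp, which binds haemoglobin, was 12.47 ± 0.28 in CCl4 livers and 12.00 ± 0.09 in oil livers (SD, n = 5 each), without overlap, and Hpx, which binds haem, was at 0.43 (limma adjusted p = 0.150 and 0.178). Rbp4, the retinol carrier bound by transthyretin, was at 0.03. Of 17 positive acute phase genes Lcn2 and Saa3 rose, by 4.95 and 4.09 on the log2 scale, and the median was 0.43.

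Of 14 hepatocyte transcription factors and D-site binding proteins 0 passed (median -0.06, or 0.08 without CCl4 liver 4). Cebpb was at 0.63, Prox1 at -0.42 and Hnf4a at 0.11, and Hnf4a drives many hepatocyte genes. Of 24 genes for translocation and folding of secreted proteins 0 passed, only 2 had positive fold changes and the median was -0.22, beside 0.01 over all genes. CCl4 liver 4 was the lowest CCl4 liver for 18 of the 24, and without it the median was -0.11 and 0 passed. Sel1l, of endoplasmic reticulum disposal, was at -0.49 with all CCl4 livers below all oil livers, Ssr1 at -0.43 and Sec61a1, a subunit of the translocation channel, at -0.36 (limma adjusted p from 0.273 to 0.442).

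Markers of cell types were measured beside these genes. Of 8 hepatocyte markers 0 passed and 4 had positive fold changes, and their mean signal was 11.16 to 11.65 in CCl4 livers and 11.27 to 11.38 in oil livers. Gpnmb, Cd68 and Trem2 rose among 8 macrophage markers, whose mean signal was 5.14 to 6.70 in CCl4 livers and 4.15 to 4.33 in oil livers. Of the 8, 6 had positive fold changes, and Clec4f and Marco were at -0.15 and -0.04. Without CCl4 liver 4 only 1 of the macrophage markers passed, and their median log2 fold change was 1.54, beside 1.64 with all livers. That liver was the lowest CCl4 liver for 0 of the 8. Over all probe sets 79 were higher without it, beside 147 with all livers. Col1a1, Col1a2, Col3a1, Postn and Pdgfrb rose among 9 stellate cell and myofibroblast markers, with means of 5.84 to 7.13 in CCl4 livers and 4.46 to 5.18 in oil livers. Of 7 endothelial, 4 bile duct, 5 T and NK cell, 2 B cell, 4 neutrophil and 2 red blood cell markers 0 passed. The mean signals of the T and NK cell and B cell lists were at most 2.21 in any liver. That is below the array medians of 2.54 to 2.66, so these counts say little. The mean signals of the macrophage, stellate cell and neutrophil lists did not overlap between the groups. The neutrophil markers had 1.81 to 3.22 in CCl4 livers and 1.55 to 1.71 in oil livers, all 4 of them with positive fold changes. All 4 were dimmer than the array medians in every oil liver, and CCl4 liver 2 was highest for S100a8 and S100a9, at 4.60 and 4.17. The part of these cells in the signals of the 10 genes was not tested.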

How the data were processed

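The authors deposited processed signals, 1 for each probe set of an array, read here as log2 values because their maximum lies below the log2 of a scanner's upper limit and above its natural log. How they corrected, normalized and summarised them is not given in the sources used here. In naming the array the sources differ, with Mouse Exon 1.0 ST in the design text and Mouse Gene ST 1.0 in the methods. Symbols came from the platform annotation: 14996 of 23332 probe sets had 1 symbol, 1019 several and 7317 none, and the brightest probe set stood for a gene. No detection calls or scan batches were used, and precision rests on the number of livers. Livers given CCl4 and oil were set against each other in limma (version 3.58.1, R version 4.3.3; lmFit, eBayes) over all probe sets with Benjamini-Hochberg adjustment and a threshold of 0.05. Marker and pathway lists were counted in that fit. The procedure was tested on simulated data. It found 65 of 100 probe sets with an added log2 difference of 1 and 94 of 100 with 2, beside 7 false calls. The altered probe sets were drawn at random from all probe sets and had no ceiling. Each value was drawn independently, so shifts shared by many probe sets of a liver were absent. These counts therefore give neither the chance of finding a change in the 10 bright genes nor the number of false calls in these livers. The genes, lists and alternatives were chosen with earlier results of these data known. All 10 genes were named, and of each list those past the threshold. Where none passed, only some of those with the smallest adjusted p were named, and for several lists of cell markers none were. Left out in this way were the neutrophil marker Csf3r and the red blood cell marker Alas2. Their log2 fold changes were 0.54 and -0.83 (limma adjusted p = 0.148 and 0.147). A few others were chosen for their role or their values after their values were seen (Asgr1, Tfrc, Tfr2, Fcgrt, Rbp4, Hnf4a, Car3, Apoa4, Arntl, Vcan, Clec4f, Marco and the neighbouring genes).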

Additional observations from a re-analysis of the deposited data

Results flagged for a closer look

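In CCl4 liver 4, Ttr was 12.37, with the remaining 4 of its group at 12.86 to 12.98, and Itih1 was 9.44, with the remaining 4 at 9.91 to 9.995. In both, the gap to the nearest liver took up most of the range of the group, at 0.794 and 0.849 of it, where the limit for 5 samples is 0.71. There were 20 groups examined (10 genes in CCl4 and oil livers), and chance gives such a gap in about 1 of 20.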

How the results depend on the processing

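Under all 19 alternatives 0 of the 10 genes passed, and Itih3, Itih4, Ambp, Ahsg and Trf kept their direction, Itih3 at 0.48 to 0.79. The log2 fold change of Alb turned to 0.0066 with quantile normalization and lay between -0.0448 and 0.0118 with single livers left out. For Azgp1 it was -0.0507 with median centring, -0.0178 with array quality weights and -0.0583 without oil livers 1 and 2, and for Itih2 -0.0156 with median centring and -0.0775 without those livers. With single livers left out, the ranges were -0.138 to 0.0148 for Ttr, -0.0433 to 0.0478 for Azgp1, -0.177 to 0.0039 for Itih1 and -0.0048 to 0.0948 for Itih2. Over all probe sets, 147 were higher and 21 lower. These counts were 30 and 6 with the replicate number as a block, 251 and 47 among the brighter probe sets, 12 and 2 with the methods' t-test after Benjamini-Hochberg, and 12 and 11 without oil livers 1 and 2. There were 39 lower with quantile normalization and 36 with median centring. With single livers left out, 30 to 259 were higher and 5 to 40 lower, and causes were not tested. At the methods' own threshold 0 of the 10 genes were called by the t-test, and of all probe sets 545 higher and 155 lower. Deviations of same-numbered livers from their group means correlated at -0.04 to 0.16 over probe sets. Of the CCl4 livers, 2 correlated best with the oil liver of their own number. Arntl was low in livers 1 and 2 of both groups, so these correlations do not settle whether the numbers carry a shared condition. With the replicate number as a block, the limma adjusted p of Itih3 was 0.292. Averaging several probe sets of a gene was not run, since each gene had 1. Leaving CCl4 liver 4 out of the gene lists was chosen after seeing the data, as was the Arntl covariate.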

Other observations

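After subtraction of the group means, the genes whose values followed Itih3 most closely over the 10 arrays were Capzb, a subunit of actin capping protein, Stxbp2, a vesicle fusion regulator, and Ccdc32, with Pearson r of 0.98, 0.96 and 0.96. These are the highest values among all genes measured, each pair of values coming from the same array, and are given as a description. Capzb was 9.13 ± 0.18 in CCl4 livers and 9.06 ± 0.11 in oil livers (SD, n = 5 each).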
